A study of Mus musculus with 12 samples.

Results

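Fto, Alkbh5, Mettl16, Mettl5 and Zcchc4 encode the m6A demethylases and the m6A methyltransferases that act outside the Mettl3 and Mettl14 complex. Their own mRNAs were examined for m6A methylation peaks by taking every mRNA peak that carried 1 of these 5 gene symbols, out of 10030 genes with a peak. All 5 genes had at least 1 peak, and together they held 43 peaks in 14 merged regions, a region being the union of peaks of different libraries that overlapped by at least 1 base.

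The cells were C17.2, a wild-type immortalised mouse neural stem cell (NSC) line, so that every sample came from a single line. The H/R group spent 12 h at 5% oxygen followed by 48 h of reoxygenation, and the control group stayed in standard oxygen. Methylated RNA immunoprecipitation sequencing (MeRIP-seq) enriches RNA fragments with an antibody against N6-methyladenosine (m6A) and compares them with the unselected input, and the 12 samples were 3 immunoprecipitates and 3 inputs of each group. Each of the 6 libraries, 3 of each group and lettered A to C, had separate peak lists for mRNA, long noncoding RNA (lncRNA) and circular RNA (circRNA). The labels did not say whether the replicates were separate cultures, so the p-values given here reflect the variation among these samples alone, and that variation may be technical.

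m6A is placed on most mRNAs by the Mettl3 and Mettl14 complex, usually within the DRACH consensus (D stands for any base but C, R for a purine and H for any base but G) and often near the stop codon or in long internal exons. FTO and ALKBH5 are oxygen- and 2-oxoglutarate-dependent dioxygenases that remove the methyl group, FTO also from the cap-adjacent m6Am, which m6A antibodies bind as well. METTL16 methylates the U6 small nuclear RNA and hairpins of the Mat2a mRNA, METTL5 with its partner TRMT112 methylates 18S rRNA, and ZCCHC4 methylates 28S rRNA. A peak shows that RNA of a gene was immunoprecipitated at that place. It does not give the level of the mRNA or of the protein, and in bulk samples fewer methylated cells and less methylation per cell cannot be told apart.

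The mRNA lists held 7863 to 12180 peaks in the control group and 13954 to 22038 in the H/R group. The lists do not give read depth, so no interval that needs it was computed. Of the markers of NSCs, Nes and Sox2 had a peak in all 6 lists, Msi1 in H/R A and C only, and Vim, Pax6 and Sox1 in none. Of 13 markers of neurons, glia, microglia and endothelium only Map2 and Gfap had any peak. The neuronal marker Map2 was called in 5 of the 6 lists, all but control B, and the astrocyte marker Gfap in control B and C only. The false discovery rate that the peak caller gave was above 5% for 42 of the 43 peaks, with a range of 24.98% to 100%. Each peak below is therefore described by its fold enrichment (immunoprecipitate over local background, a ratio) and its p score, which is 10 times the -log10 of the p-value and starts at 50 in these lists. Percentiles of either value are the share of peaks of the same list with a lower value.

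The first question was whether the 5 mRNAs carried more peaks after H/R. In controls A to C they held 6, 5 and 3 peaks, and in H/R A to C they held 9, 8 and 12. Every H/R library lay above every control library (4.67 ± 1.53 against 9.67 ± 2.08 peaks, SD, n = 3 each, exact permutation test, two-sided as all tests here, p = 0.1, the smallest that 3 against 3 libraries allow, so that no such test could pass 0.05). The lists as a whole were longer in the H/R group by a similar factor, 1.89 against 2.07 for the 5 genes. Per 10000 peaks of the list, the 5 genes held 4.93, 5.60 and 3.82 peaks in the control libraries against 4.81, 5.73 and 5.45 after H/R. These rates overlapped between the groups (4.78 ± 0.90 against 5.33 ± 0.472, SD, n = 3 each, exact permutation test, p = 0.5).

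**Figure D1:**
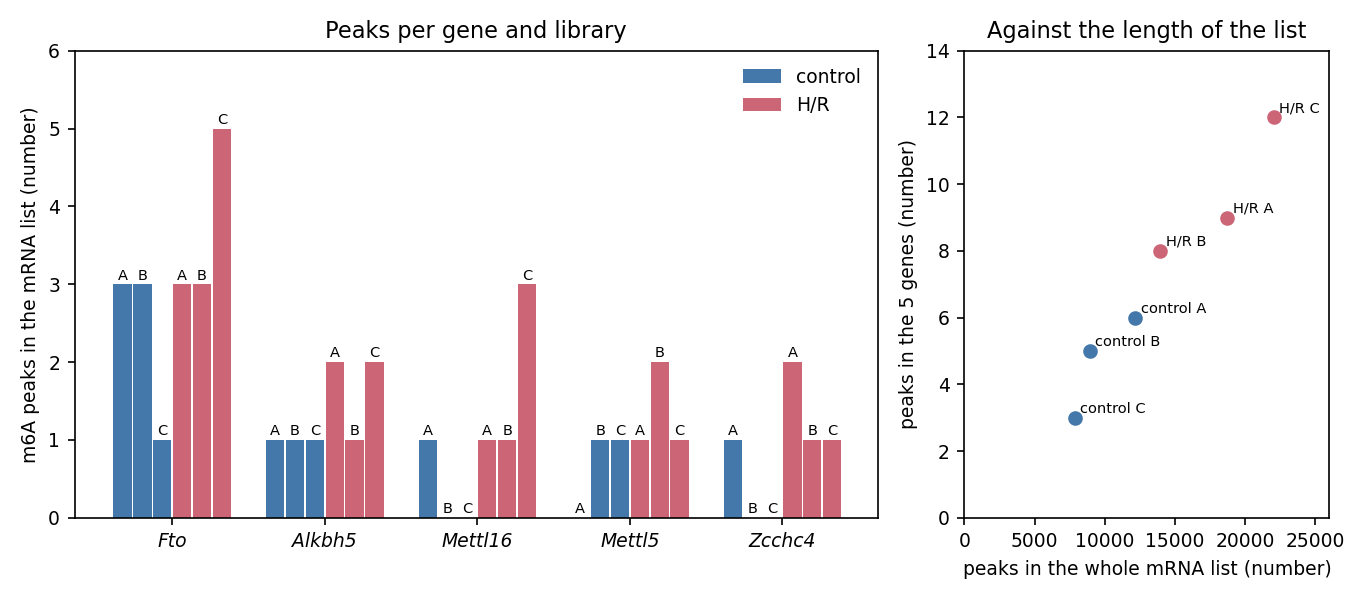
Left, number of m6A peaks in the mRNA list (y axis) for each of the 5 genes, with 1 bar per library and the library letter above it, control in blue and H/R in red. Right, number of peaks in the 5 genes (y axis) against the number of peaks in the whole list (x axis), 1 point per library, from control C with 3 peaks in a list of 7863 to H/R C with 12 peaks in a list of 22038.

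The covered length was also compared. Peaks of the 5 genes covered 4896, 2673 and 1976 bases in controls A to C against 6575, 5502 and 6246 bases in H/R A to C (3182 ± 1525 against 6108 ± 550 bases, SD, n = 3 each, exact permutation test, p = 0.1). The groups did not overlap. The H/R mean was 1.92 times the control mean, and the number of peaks in the whole lists was higher by a similar factor, 1.89. Covered length over all genes was not computed. With only peaks of a fold enrichment of at least 10, the mean difference turned from 2926 bases higher to -62 bases in the H/R group (exact permutation test, p = 0.9).

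As the left panel of the plot of peaks per gene shows, no single gene separated the groups by its number of peaks. Fto had 3, 3 and 1 peaks in the control libraries against 3, 3 and 5 after H/R, and Alkbh5 had a single one in every control library against 2, 1 and 2 in H/R A to C. Mettl16 had 1, 0 and 0 peaks against 1, 1 and 3, Mettl5 had 0, 1 and 1 against 1, 2 and 1, and Zcchc4 had 1, 0 and 0 against 2, 1 and 1. The exact permutation p-values were 0.6 for Fto, 0.4 for Alkbh5, 0.3 for Mettl16, 0.6 for Mettl5 and 0.3 for Zcchc4 (n = 3 each). Across all 10030 genes, 14.8% had more peaks in every H/R list than in every control list, and none of the 5 did.

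By presence, 4, 3 and 3 of the 5 genes were called in controls A to C against all 5 in each H/R library (3.33 ± 0.577 against 5 ± 0, SD, n = 3 each, exact permutation test, p = 0.1). The difference of 1.67 genes became 0.667 with only peaks of a fold enrichment of at least 10 (4, 3 and 3 genes against 3, 4 and 5) and 0.333 with every list held to its 7863 highest-scoring peaks (1, 3 and 3 genes against 3, 2 and 3), and the groups then overlapped. Over all genes 61.5% were called in all 3 H/R lists. The erasers Fto and Alkbh5 were called in all 6 lists, as were 39.5% of all genes. Mettl5 was missed in control A, and Mettl16 and Zcchc4 were missed in control B and C. None of the 5 was called in all 3 H/R lists and no control list (4.96% of all genes) or in all 3 control lists and no H/R list (0.0698% of all genes).

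Of the 14 regions, 2 were called in all 6 lists (22.0% of all 27079 merged regions), the first exons of Fto and of Alkbh5. Another region, at the end of Zcchc4, was called in all 3 H/R lists and no control list (6.21% of all regions), and no region had the reverse pattern. A further 7 regions were called in 2 to 5 lists and 5 in 1 list, 4 of them in H/R C, the longest list, and 1 in H/R B. Every region had a peak in the H/R group, and 7 had none in the control group, while of all 27079 regions 2.52% had no H/R peak and 50.5% no control peak.

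The peaks followed exon boundaries. Of the 41 peaks whose listed transcript had a model in the reference annotation, 32 were exactly 1 whole exon and 8 more began at the first base of an exon, and 65.4% to 78.8% of all peaks of a list were whole exons too. First exons held 18 of the 41 peaks (16.5% to 19.7% of all peaks of a list), and last exons held 10 (25.8% to 36.2%). These peaks are not independent, because a region counts once for each list that called it. The 18 came from exon 1 of Fto and of Alkbh5 in 6 lists each, Mettl5 exon 1 in 5 and an alternative Mettl16 first exon in 1. By the centre of the peak, and counted in the same way, 29.3% lay in the 5′UTR, 46.3% in the coding sequence and 24.4% in the 3′UTR. The map of peaks along the spliced transcripts separates the genes: the most frequent peaks of Fto, Alkbh5 and Mettl5 were their first exons, and the peaks of Mettl16 and Zcchc4 lay mostly on the terminal exon.

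**Figure D2:**
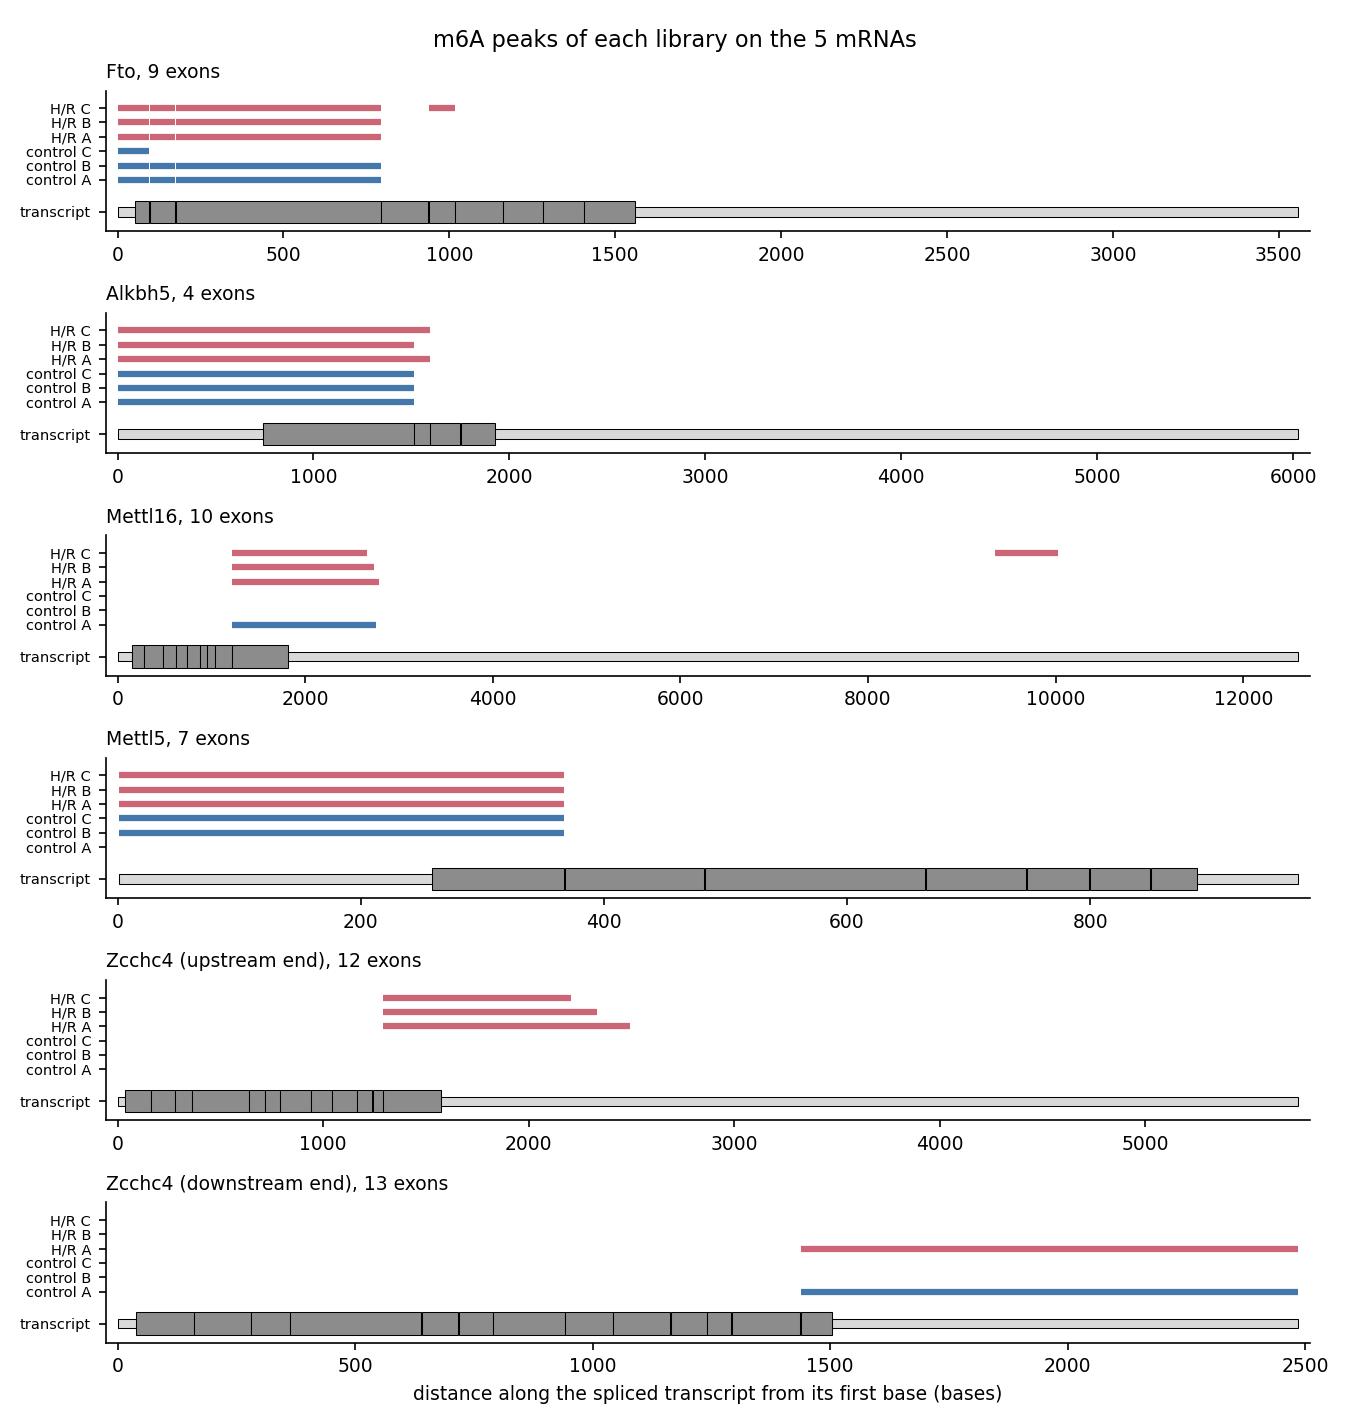
Peaks of each library (coloured lines, control in blue and H/R in red) above the spliced transcript, in bases from its first base (x axis). Boxes are exons and the taller, darker boxes their coding parts. The 5′ peaks of Fto, Alkbh5 and Mettl5 and the terminal-exon peaks of Mettl16 and Zcchc4 can be seen, and 3 peaks on other transcript forms of Fto, Mettl16 and Mettl5 are not drawn.

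Fto, the demethylase of m6A and m6Am, had its peaks on the first exons of its 9-exon transcript (NM_011936). Exon 1 (mm10, chr8:91313525-91313620, plus strand, 96 bases, of which 45 are coding) was called in full in all 6 lists. Its fold enrichment was 34.79, 51.67 and 50.03 in controls A to C against 9.84, 51.36 and 23.96 in H/R A to C. H/R B lay among the control values and H/R A and C below them, so that the groups overlapped (45.5 ± 9.31 against 28.4 ± 21.1, SD, n = 3 each, exact permutation test, p = 0.3). The p score was 357.05, 272.25 and 299.61 in the control libraries against 877.21, 1806.98 and 2395.49 after H/R, without overlap (310 ± 43.3 against 1693 ± 766, exact permutation test, p = 0.1, n = 3 each). Among the 5950 regions called in all 6 lists, 53.1% likewise had a higher p score in every H/R list than in every control list, and 54.3% had a lower fold enrichment in every H/R list. As a percentile of its list, the p score of Fto exon 1 was 52.3, 51.8 and 59.2 in the control libraries against 66, 79.6 and 85.3 after H/R, a pattern without overlap that 35.5% of these regions shared. Lists of different lengths are not ranked alike, and when ranked among the 5950 shared regions alone, the p score percentiles of Fto exon 1 overlapped between the groups (24.7, 36.5 and 50.5 against 21, 56.6 and 54, exact permutation test, p = 0.7, n = 3 each).

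Exons 2 and 3 of Fto, both wholly coding, were called in all lists but control C. For exon 2 (chr8:91401807-91401884, 78 bases) the fold enrichment was 17.05 and 26.68 in control A and B and 8.32, 35.43 and 24.68 in H/R A to C. Its p score was 115.17 and 73.76 against 400.36, 509.11 and 498.92, with every H/R value above both control values. For exon 3 (chr8:91409223-91409841, 619 bases), the longest coding exon of Fto, the fold enrichment stayed in a narrow range, 13 and 16.41 in control A and B and 11.95, 9.99 and 11.39 in H/R A to C, with every H/R value below both control values. Its p score was 283.71 and 312.91 in control A and B, 3100 in H/R A, 630.78 in H/R B and 3233.06 in H/R C. The H/R C peak was the only one of the 43 at or under a false discovery rate of 5%, and it was 1 of 6 such peaks in that list. Since control C held only the exon 1 peak, the 3 exons were called together in 5 of the 6 libraries. The separations at exons 2 and 3 were from 2 control values only, and neither exon was among the 5950 regions called in all 6 lists. Among those regions, 53.1% had a higher p score and 54.3% a lower fold enrichment in every H/R list than in every control list.

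Another 2 Fto peaks were called in H/R C alone. One began at the first base of exon 4 (144 bases) and ran 67 bases past its end into the intron (chr8:91441663-91441873, p score 139.97, fold enrichment 5.74). The other was the whole of exon 5 (chr8:91468317-91468396, 80 bases, p score 68.97, fold enrichment 6.52). Exon 9, which holds the stop codon and the 3′UTR in 2152 bases, had no peak in any list.

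The coding part of exon 1 and the whole of exon 2 are shown because they are short enough to see which DRACH matches they hold. Of the 2 DRACH matches in the whole of exon 1, 1 lies in the coding part. Both stretches are read 5′ to 3′ on the plus strand of GRCm38.p6 (the RefSeq assembly of the mm10 build), with DRACH matches in capitals.
Fto exon 1, coding part, chr8:91313576-91313620: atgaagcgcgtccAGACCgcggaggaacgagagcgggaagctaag
Fto exon 2, chr8:91401807-91401884: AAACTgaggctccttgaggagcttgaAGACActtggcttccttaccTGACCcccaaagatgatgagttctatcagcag
Neither stretch holds the GGAC core, which occurs 4 times in exon 3. The exon 3 site nearest to the middle of the exon reads as follows.
Fto exon 3, chr8:91409391-91409411: ctcatcggGGACCcaggctgc

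Alkbh5, the other m6A demethylase, had 1 peak in all 6 lists. It was the whole of exon 1 (chr11:60537683-60539195, plus strand, 1513 bases of the 4-exon transcript NM_172943, 740 of them 5′UTR and 773 coding). The fold enrichment was 19.3, 36.06 and 33.26 in controls A to C against 22.9, 23.64 and 27.09 in H/R A to C. The H/R values lay inside the control range (29.5 ± 8.98 against 24.5 ± 2.24, SD, n = 3 each, exact permutation test, p = 0.4). The p score was 62.4, 128.95 and 187.51 in the control libraries against 2921.04, 1211.42 and 3100 after H/R (126 ± 62.6 against 2411 ± 1043, SD, n = 3 each, exact permutation test, p = 0.1). The lowest H/R value was thus several times the highest control value.

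At 53.1% of the 5950 regions called in all 6 lists, the p score was higher in every H/R list than in every control list. In addition, 382 to 2737 peaks of a list were tied at 3100. The Alkbh5 peak was therefore also ranked. Its p score percentile within the list was 6.3, 29.8 and 46.2 in controls A to C against 84.2, 73.3 and 88 in H/R A to C (27.4 ± 20.1 against 81.8 ± 7.63, SD, n = 3 each, exact permutation test, p = 0.1). The groups did not overlap, as for 35.5% of the 5950 regions called in all 6 lists. The difference was 54.4 percentile points, against a median of 11.9 points over these regions. The H/R lists were the longer ones, so in an alternative chosen after seeing the data the peak was ranked again among these 5950 regions alone, the same number in each list. Its percentile there was 0.672, 15.6 and 36.1 in controls A to C against 56.6, 45 and 61.4 in H/R A to C, again without overlap, as for 6.35% of the regions (17.5 ± 17.8 against 54.3 ± 8.47, exact permutation test, p = 0.1, n = 3 each). The difference was 36.9 points, the median over all these regions was -6.46, and 41 of them (0.689%) had a difference at least as high. Ranking did not remove the ties, because tied values took the lowest rank of their tie. Peaks tied at 3100 were more numerous in the whole H/R lists (1773 to 2737) than in the control lists (382 to 1184). How far these percentiles and their differences depend on the ties was not tested.

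The fold enrichment of Alkbh5 exon 1 was ranked in both ways too. The median fold enrichment of the whole list was lower in the H/R group, 9.34 to 15.49 against 21.78 to 33.89 in the control group. Within the list the fold percentile of Alkbh5 exon 1 was 41.2, 55.1 and 63 in the control libraries against 88.2, 74.5 and 90.2 after H/R (exact permutation test, p = 0.1, n = 3 each), where 29.6% of the 5950 regions had no overlap and the median shift was 12.6 points. Among the 5950 regions alone it was 18.8, 43.2 and 57.1 against 68.5, 50.3 and 70.2, and the groups overlapped (exact permutation test, p = 0.2, n = 3 each, with 8.37% of regions higher in every H/R list). For Fto exon 1 the fold percentile among these regions was 58.3, 67.4 and 80.1 against 14.3, 89.2 and 64.2 (exact permutation test, p = 0.8, n = 3 each).

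**Figure D3:**
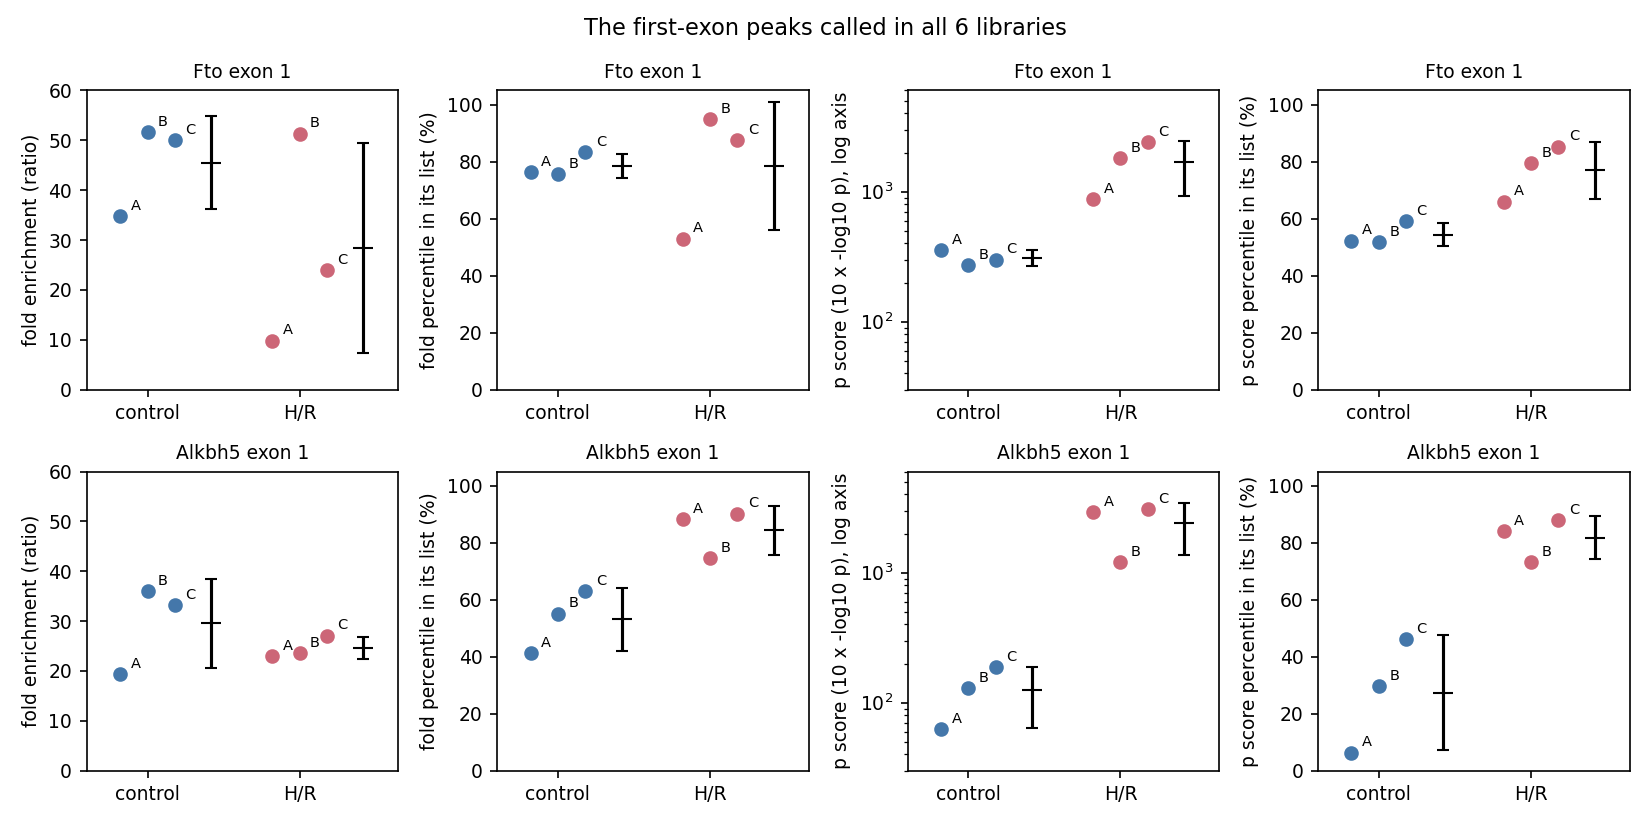
Fold enrichment, its percentile within the list, p score (log axis) and its percentile within the list (y axes, left to right) of the first-exon peaks of Fto (top) and Alkbh5 (bottom), for the 3 control (blue) and 3 H/R (red) libraries, with the mean and SD as a black bar. Percentiles are within lists of different lengths. The 3 H/R libraries lie at p score percentiles of 73.3 to 88 for Alkbh5, above the control libraries at 6.3 to 46.2. Of the regions called in all 6 lists, 35.5% had such a separation. The fold enrichments of the groups overlap for both genes.

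A second Alkbh5 peak, the whole of the coding exon 2 (chr11:60547688-60547768, 81 bases), was called in H/R A and C only. The p score was 153.59 and 212.11 there and the fold enrichment 6.68 and 9.07. Exon 4, with the stop codon and the 3′UTR in 4275 bases, had no peak in any list. Exon 2 and the GGAC-containing DRACH site nearest to the middle of the coding part of exon 1 are given. They show a DRACH site of each called exon, on the plus strand with DRACH matches in capitals.
Alkbh5 exon 2, chr11:60547688-60547768: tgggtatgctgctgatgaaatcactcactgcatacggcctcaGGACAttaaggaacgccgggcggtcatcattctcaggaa
Alkbh5 exon 1, coding part, chr11:60538789-60538809: cacacggtGGACCgggccccc

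Mettl16, the methyltransferase of U6 RNA and Mat2a mRNA, had its recurrent peak on the terminal exon 10, which holds the end of the coding sequence and the 3′UTR. The peak began at the first base of the exon (chr11:74817159, plus strand) and was 1542 bases long in control A and 1570, 1520 and 1439 bases in H/R A to C. Its p score was 136 in control A and 328.44, 100.47 and 425.9 in the H/R group, and its fold enrichment was 11.56 against 6.12, 7.24 and 7.94, so that control A was second lowest of the 4 by p score and highest by fold enrichment. The 4 peaks ended within the 3′UTR at nearly the same place, whereas the longest annotated form of the exon extends over 11367 bases (ENSMUST00000141755).

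H/R C had a further 2 Mettl16 peaks. One covered 668 bases of the distal 3′UTR of that long form (chr11:74825300-74825967, p score 87.61, fold enrichment 9.2), and the other 181 bases of an alternative first exon (chr11:74770916-74771096, p score 241.91, fold enrichment 10.05). The coding part of exon 10 holds no GGAC core followed by A, C or T, and the DRACH site nearest to its middle is shown in its place.
Mettl16 exon 10, coding part, chr11:74817461-74817481: ccaggaggAGACTcccgaggc

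Mettl5, the 18S rRNA methyltransferase, lies on the minus strand of chromosome 2 and its peak was the whole of exon 1 (chr2:69885249-69885615, 367 bases of the 7-exon transcript NM_029280, 109 of them coding). The peak was absent from control A. Its p score was 125.67 and 67.0 in control B and C against 1003.7, 223.96 and 659.84 in H/R A to C, and its fold enrichment was 36.36 and 22.24 against 29.11, 17.93 and 28.94. All 3 H/R p scores lay above both control values, while the fold enrichments overlapped. Among the 5950 regions called in all 6 lists, which this exon was not, 53.1% had a higher p score in every H/R list than in every control list. In H/R B a second peak (chr2:69877748-69878017, 270 bases, p score 50.46, fold enrichment 9.15) fell in a stretch that is intronic in the main transcript and exonic in an annotated retained-intron form. With a p score percentile of 0.222 it was near the lower limit of its list.

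The coding part of the first exon is given, on the minus strand, as the translated stretch of the exon that was called whole in 5 lists. This coding part holds 2 DRACH matches and no GGAC core, whereas the whole exon holds 6 DRACH matches and 2 GGAC cores.
Mettl5 exon 1, coding part, chr2:69885249-69885357: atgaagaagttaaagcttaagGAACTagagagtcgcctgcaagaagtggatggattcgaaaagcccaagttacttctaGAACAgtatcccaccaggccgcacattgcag

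Zcchc4, the 28S rRNA methyltransferase, had peaks on the terminal exons of 2 transcript forms. The form with the upstream end (ENSMUST00000031077, 12 exons) carried the only region of the 5 genes that was called in all 3 H/R lists and no control list. In this region (chr5:52819121-52820323, plus strand) the p score was 252.99, 74.68 and 106.25 and the fold enrichment 7.97, 10.0 and 12.39 in H/R A to C. The peaks shared 145 bases with exon 12 of the other form and then ran 1058, 894 and 768 bases beyond them, into sequence that the other form does not include. They lay in the lower part of their lists, at p score percentiles of 41, 9.8 and 22.7, and the region was no longer called in all 3 H/R lists when a p score of at least 100 or a fold enrichment of at least 10 was required.

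The form with the downstream end (ENSMUST00000113904, 13 exons) had the whole of its terminal exon 13 (chr5:52823618-52824665, 1048 bases) called in 1 library of each group. The p score was 94.79 in control A and 74.33 in H/R A, and the fold enrichment 14.29 and 5.4. H/R A was thus the only library with a peak at both ends of Zcchc4, control A had only the downstream one, and H/R B and C only the upstream one. A GGAC-containing site from each end, nearest to the middle of the stretch that the ends do not share, is shown to tell the 2 forms apart.
Zcchc4 upstream end, chr5:52819478-52819498: ttcacacaGGACAgccaggat
Zcchc4 downstream end, chr5:52823815-52823835: tgccacatGGACTtaaatcca

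**Figure D4:**
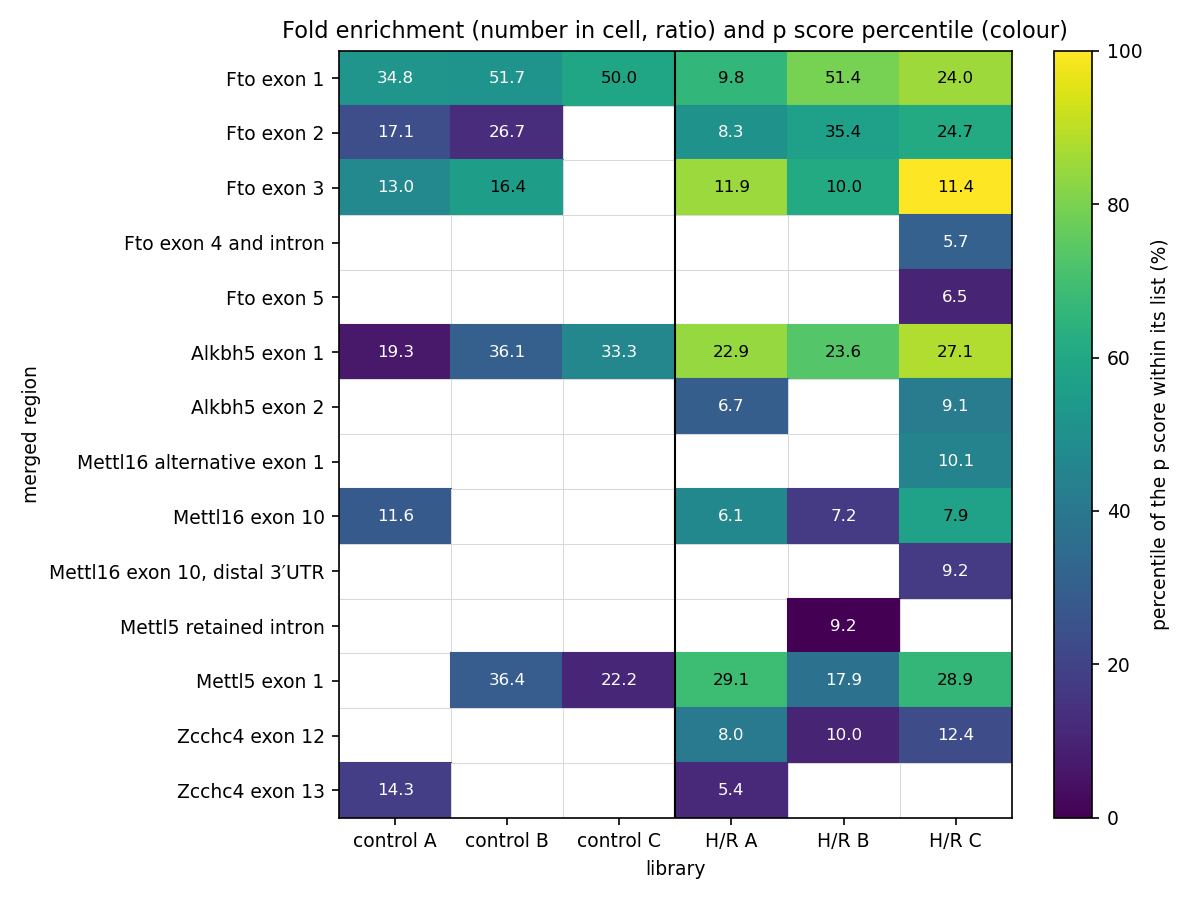
The 14 merged regions (rows) in the 6 libraries (columns), with the fold enrichment as a number in each called cell and the p score percentile within its list as the colour; white cells had no peak. The first exons of Fto and Alkbh5 are filled in all 6 columns, Zcchc4 exon 12 in the 3 H/R columns only, and 4 rows in H/R C alone.

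Motifs were counted on the transcript strand alone, DRACH with overlapping matches and the GGAC core, which with A, C or T after it is itself a DRACH site. Over 24912 merged regions with a known strand there were 20.2 DRACH and 4.4 GGAC per kb, and 93.8% and 66.2% of the regions held at least 1. Fto had 22.6 DRACH per kb inside its peaks and 20.1 in the rest of its transcript. Alkbh5 had 9.41 per kb inside and 17.8 outside, Mettl16 14.7 and 21.6, and Mettl5 16.3 and 28.1. For GGAC the order in Alkbh5 was the reverse, 7.53 per kb inside its peaks against 3.39 outside, and Fto had 5.9 against 3.15. Mettl16 and Mettl5 had fewer GGAC per kb inside than outside, 1.73 against 3.31 and 5.45 against 6.62. In Zcchc4 the GGAC density was 2.49 per kb inside and 3.3 outside for the form with the upstream end, and 4.19 and 3.87 for the form with the downstream end. By DRACH, the Zcchc4 form with the upstream end had 20.8 DRACH per kb inside and 18.3 outside, and the form with the downstream end 18.4 and 20.1.

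ACAGAGA, the core of the sequence that METTL16 methylates, occurred once each in Mettl16 exon 10, Mettl5 exon 1 and Zcchc4 exon 13 and in no other region of the 5 genes. It was present in 8.97% of all merged regions. Mat2a, the METTL16 substrate that encodes the enzyme making S-adenosylmethionine, had no mRNA peak in any list.

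The same genes were looked for in the other lists. No lncRNA or circRNA peak was assigned to any of the 5 genes by name, and none overlapped their loci by coordinates, in any of the 6 libraries. A peak of another gene lay on a member locus in 1 place: the terminal exon of Ssb, which codes for the La protein and is transcribed on the plus strand, towards the 3′ end of Mettl5. The Ssb peak was called in all 6 lists (p score 2974.93 to 3100, fold enrichment 17.9 to 47.24). It covered all 122 bases of Mettl5 exon 7 in all 6 lists and the 50 bases of exon 6 in all but H/R C. Whether strand was used when peaks were assigned is not given in the sources used here, so reads of the 2 genes in this stretch cannot be told apart. Upstream of Fto, a peak of the divergent gene Rpgrip1l ended 265 and 264 bases from the first base of Fto in H/R A and C.

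Genes that work with the members were counted from fixed lists. Of 8 partners, substrates and methyl donor genes, 5 had a peak. Larp7 and Mepce, which bind 7SK RNA, and Dimt1, an 18S rRNA dimethyltransferase, were called in all 6 lists (39.5% of all genes with a peak). Pcif1, which writes m6Am, was called in all 3 H/R lists and no control list (4.96% of all genes with a peak). It had 1 peak in each, with a fold enrichment of 6.24 to 10.26. Its lowest p score was 52.4, close to the 50 at which the lists start. Trmt112, Mat2a and Ahcy had no peak. Of 7 other AlkB-family genes, 4 had a peak, none of them in all 6 lists and none in 1 group alone with all of its libraries.

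Of 30 other RNA methyltransferase genes, 26 had a peak. Of these, 8 were called in all 6 lists (39.5% of all genes with a peak). Only 1 was called in all 3 H/R lists and no control list (4.96% of all genes with a peak). None was called in all 3 control lists and no H/R list (0.0698%). Others were called in some H/R lists but in no control list. Fbl, the rRNA 2′-O-methyltransferase fibrillarin, Mettl6, a tRNA methyltransferase, and Trmt10a were among the 8. Mrm1, a mitochondrial rRNA 2′-O-methyltransferase, was called in H/R A to C with 1, 1 and 2 peaks and a fold enrichment of 6.95 to 30.8. For comparison, 5 of 8 m6A writer subunits (7 with a peak) and 5 of 11 m6A readers (9 with a peak) were called in all 6 lists. The share of 39.5% over all genes counts only genes with a peak, whereas the fixed lists include genes without one. Genes called per list numbered 6, 5 and 6 of the writer subunits in the control group and 7 in each H/R library, and 7, 5 and 6 of the readers against 6, 6 and 8. The number of all genes called per list was not computed. Over all genes with a peak, 61.5% were called in all 3 H/R lists, and the H/R lists held 1.89 times as many peaks on average.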

How the data were processed

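The 18 deposited peak lists (mRNA, lncRNA and circRNA, 6 libraries each) were used. The submitters' processing notes name cutadapt 1.9.3 for trimming, HISAT2 2.0.4 for alignment and the build mm10. The authors fragmented the RNA, called peaks per library with MACS (version not given in the sources used here), immunoprecipitate against input, and kept the parts on exons, without pooling replicates. A more deeply sequenced library can yield more and longer peaks from the same RNA, and clipping to exons sets many peak lengths.

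The deposited p score is 10 times the -log10 of the p-value, the deposited fold enrichment is a ratio to the local background that MACS estimated, and the false discovery rate was deposited in percent. Many peaks share the most common p score, 3100.

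Exons came from RefSeq GRCm38.p6 and GENCODE vM21, which gave a model for 91.9% to 92.4% of a list's peaks. Analyses were run with Python 3.11.15, pandas 2.3.3 and numpy 2.4.6. Group means of 3 libraries each were compared by exact permutation, two-sided, and counting was tested on simulated data. Genes of the fixed lists were matched by symbol or gene ID and named, members apart, when called in all lists of 1 group and none of the other, or in all 6 lists, at most 4 per list ranked by the lowest over libraries of their highest p score. The members and lists were chosen with earlier results of these data known. Alternatives were a minimum fold enrichment of 10, a minimum p score of 100, lists held to the shortest length (7863 peaks), a stricter overlap for merging (50% of the shorter peak), assignment by coordinates, percentiles within a list or among the regions called in all 6 lists, base-wise region shares, and leaving out each library.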

Additional observations from a re-analysis of the deposited data

How the results depend on the processing

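No comparison of libraries could pass 0.05 under any setting, so a p-value is no guide to stability here. The 5 genes had more peaks in the H/R group under every alternative tried for that count, but the difference of 5 peaks shrank to 0.333 when a fold enrichment of 10 or more was required and to 0.667 for lists held to the shortest length, where Mettl16 and Zcchc4 had no peak in any library. The difference of 1.67 genes called shrank to 0.667 and 0.333 in these settings. With genes assigned by coordinates it was 1.33 (5, 3 and 3 genes in controls A to C against 5 in each H/R library). Control A then reached the H/R count, with Mettl5 counted through the Ssb peak on its locus. The covered length turned to -62 bases and the Fto peak count to -0.333 under the same minimum fold enrichment. Zcchc4 exon 12, the 1 region called in all H/R lists and no control list, gave a count of 0 under that minimum, 0 with a p score of 100 or more and 0 at the shortest length. Leaving out 1 library gave counts of 1 to 2: without control A, Mettl16 exon 10 was added, and without H/R B, Alkbh5 exon 2. The deposited fold enrichment differed by -17.1 at Fto exon 1 and by -5 at Alkbh5 exon 1, as ratios. On the other scale of percentiles within the list, the differences were 0.0817 and 31.2 percentile points. Among the regions called in all 6 lists they were -12.7 points at Fto exon 1 and 23.3 points at Alkbh5 exon 1. The deposited fold difference at Fto exon 1 ranged from -28.6 (without H/R B) to -7.84 (without H/R A), and that at Alkbh5 exon 1 from -10.1 (without control A) to -1.74 (without control B). Leaving out 1 library moved the Fto percentile difference between -8.12 and 12.8, so that it has no settled direction, and the p score percentile difference of Alkbh5 exon 1 between 43.8 and 63.8. The causes of these changes were not tested. The test of the p score at the first exons of Fto and Alkbh5, its percentiles, the ranking among the 5950 regions called in all 6 lists, and leaving out libraries for these were chosen after seeing the data. No paired analysis was possible because the peak lists carry letters that nothing connects with the numbered replicates of the labels. Read depth is not in the lists, so a missing peak is not evidence that the site was unmethylated.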
